A study of Mus musculus with 48 samples.

Results

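The promoters described here belong to 3444 protein-coding autosomal mouse genes, 20% of the 17188 that could be chosen. A promoter was called open in a cell when a region with a q under 0.05 reached within 1 kb of a transcription start site (TSS) of the gene, and the 3444 were selected on these measured values, as the genes open in at least 1 daughter cell of 12 or more of the 24 divisions. They are called members below. Of 20021 autosomal protein-coding genes with a known RefSeq transcript, 2833 were left out because a TSS on the opposite strand lay within 1 kb. A further 6009 genes were open in 1 to 11 divisions and 7735 in none. The q is the adjusted p of the region caller, and pileup is its count of overlapping reads at the summit of a region. Because q chose the members, their openness, pileup and region length are given as a description, and the tests by age were run over all genes and not over members alone.

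The cells were the paired daughters of single haematopoietic stem cells (HSCs), separated after the first division in culture and profiled one by one with ATAC-seq. The cell labels name long-term HSCs of B6.SJL mice, grown for 40 to 44 h in IMDM with 10% FBS and cytokines, mSCF and G-CSF among them, at 3% O2, while the methods of the study name C57BL/6 mice for the ATAC-seq and list congenic SJL mice among those used. Young mice were 10 to 12 weeks and aged mice 20 to 26 months old. There were 14 young divisions (28 cells), 8 in library set 3, 4 in set 4 and 2 in set 5, and 10 aged divisions (20 cells), 5 each in sets 3 and 4. The set is read here from the first digit of the cell name, and the labels do not say what this digit means. The mice are not named, so a p-value below measures the spread between divisions, not between animals.

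In ATAC-seq a transposase cuts and tags DNA that is not covered by nucleosomes, and the promoters of genes used by most cell types are commonly found among such regions. Many of these promoters lie in CpG islands, which are rich in G and C and often lack a TATA box, while promoters of tissue-restricted genes more often lie outside CpG islands. In a diploid cell a locus offers very few copies to the transposase, so the signal at a promoter of a cell rests on a handful of fragments, and a promoter without a region may have been missed.

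The sequences below show the 250 bases before the TSS of the 3 members open in the most divisions (Fam210b, Amz2 and Slc35b2), of the ubiquitin ligase scaffold gene Cul3, of Spi1 and Runx1 as members that encode blood transcription factors, and of the liver gene Alb, open in no division. They come from RefSeq build GRCm38.p6, run 5′ to 3′ on the strand of the gene, and have motif matches in capitals. Fam210b is at chr2:172345327-172345576 (+), Amz2 at chr11:109425696-109425945 (+), Slc35b2 at chr17:45563686-45563935 (+) and Cul3 at chr1:80340691-80340940 (-). Spi1 is at chr2:91082155-91082404 (+), Runx1 at chr16:92826075-92826324 (-) and Alb at chr5:90460620-90460869 (+). All lie upstream of the most upstream known TSS of the gene.
Fam210b: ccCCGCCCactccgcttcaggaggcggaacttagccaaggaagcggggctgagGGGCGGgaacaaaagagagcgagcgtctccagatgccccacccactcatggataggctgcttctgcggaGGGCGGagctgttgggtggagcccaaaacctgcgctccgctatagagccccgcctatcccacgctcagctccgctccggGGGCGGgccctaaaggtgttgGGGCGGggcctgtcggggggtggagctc
Amz2: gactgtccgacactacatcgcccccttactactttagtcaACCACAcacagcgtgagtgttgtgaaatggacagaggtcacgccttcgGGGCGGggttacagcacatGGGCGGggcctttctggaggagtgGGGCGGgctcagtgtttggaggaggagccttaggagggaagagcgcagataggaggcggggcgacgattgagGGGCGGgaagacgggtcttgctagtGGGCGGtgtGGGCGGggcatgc
Slc35b2: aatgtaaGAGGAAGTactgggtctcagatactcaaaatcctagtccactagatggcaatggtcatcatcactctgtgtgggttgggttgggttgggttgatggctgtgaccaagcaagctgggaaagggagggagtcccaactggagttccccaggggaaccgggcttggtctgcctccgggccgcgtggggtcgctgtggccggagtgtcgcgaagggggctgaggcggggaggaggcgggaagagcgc
Cul3: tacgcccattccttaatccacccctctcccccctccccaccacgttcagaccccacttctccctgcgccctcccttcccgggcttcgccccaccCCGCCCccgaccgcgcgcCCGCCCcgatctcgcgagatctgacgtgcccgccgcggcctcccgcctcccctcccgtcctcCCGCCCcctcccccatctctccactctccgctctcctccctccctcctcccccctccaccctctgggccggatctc
Spi1: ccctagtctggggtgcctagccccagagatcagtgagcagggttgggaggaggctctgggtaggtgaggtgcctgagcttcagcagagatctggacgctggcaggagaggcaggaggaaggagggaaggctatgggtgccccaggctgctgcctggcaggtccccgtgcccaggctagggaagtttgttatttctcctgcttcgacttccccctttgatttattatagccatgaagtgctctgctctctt
Runx1: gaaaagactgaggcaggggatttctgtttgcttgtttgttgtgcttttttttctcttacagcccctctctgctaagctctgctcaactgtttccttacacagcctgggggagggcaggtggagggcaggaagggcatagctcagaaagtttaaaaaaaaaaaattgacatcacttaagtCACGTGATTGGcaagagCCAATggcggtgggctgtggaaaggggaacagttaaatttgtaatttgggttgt
Alb: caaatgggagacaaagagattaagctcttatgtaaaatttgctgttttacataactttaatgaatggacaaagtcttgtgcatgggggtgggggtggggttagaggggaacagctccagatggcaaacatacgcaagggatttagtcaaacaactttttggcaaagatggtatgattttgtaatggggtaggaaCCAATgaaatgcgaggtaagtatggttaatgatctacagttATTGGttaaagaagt
Fam210b held 5, Amz2 6 and Cul3 3 matches to the Sp/KLF motif, and Amz2 also 1 RUNX match. Slc35b2 held 1 PU.1 match, Runx1 1 E-box and 2 NFY matches, and Spi1 none of the motifs searched. Alb held 2 NFY matches, and its G+C content was 39.2% against 67.6% in Fam210b and 73.2% in Cul3. Member promoters thus ranged from strings of Sp/KLF matches to sequences with no match at all.

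Cells and regions that stood apart came in 2 forms and touch every result. The 8 divisions of set 4 other than 4y1 had 1 to 114 open members each (median 17.5), whereas the other 16 divisions had 1818 to 3403 (median 3171.5). These 8 divisions added few members, since 3428 of the 3444 reached 12 divisions without them, but they made the rule strict, as 12 divisions had in effect to come from 16. At 8 or more divisions 5873 genes would have been chosen. Regions also recurred between cells of different divisions: 93.3% of the 4497932 listed regions had the start and end of a region in a cell of another division, from 78.5% to 95.4% per cell. Even among the 2592143 regions with a pileup of 1 the share was 93.3%, and listed regions had 858085 distinct pairs of start and end. Sister cells shared a median of 38.2% of the regions of the cell with fewer (24 pairs), cells of other divisions of the same age and set 33.2% (220 pairs), of the other age 31.2% (240 pairs) and of other sets 27.1% (644 pairs). The ranges overlapped almost fully: 2.21% to 59.6% in sisters, 1.43% to 61.2%, 0.254% to 64.8% and 2.64% to 62.3% in the others. Divisions are therefore not shown to be independent of each other by these files, and why regions recurred was not tested. Some values are also given without recurring regions. They are the number of members, the divisions in which members were open, sharing between sisters and the share in a division left out. Further ones are the pileup and length per cell, shares of some gene lists and the number of lists above the share of all genes. The tests by age and the G+C content are given both ways too, and other values only with recurring regions.

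No promoter was open in all divisions. The highest number was 19 of 24, reached by Fam210b, Amz2 and Slc35b2, and each member was open in 12 to 31 of the 48 cells (median 20). The counts were highest at 13 divisions (767 genes) and fell steeply beyond 16, with 67 genes at 17. At the threshold, 684 members were open in exactly 12 divisions and 632 genes just missed with 11. Mcm5, a subunit of the replicative helicase, was open in 12 divisions and 23 cells, and L3mbtl3, which encodes a chromatin-binding protein, in 11 divisions and 19 cells. The genes next to the threshold were alike in number on both sides, so the members are the upper part of a continuous range.

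**Figure D1:**
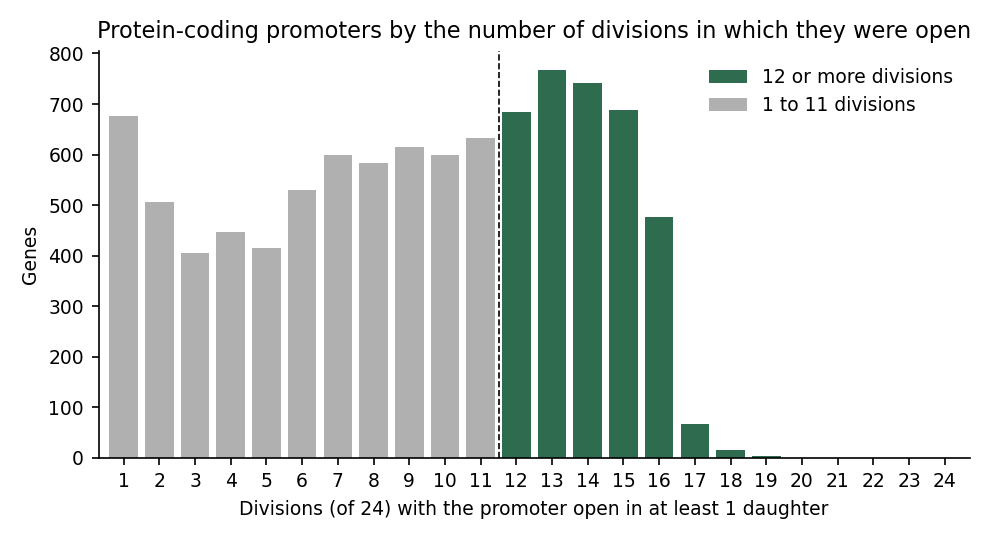
Number of genes (y axis) by the number of the 24 divisions in which the promoter was open in at least 1 daughter (x axis), for genes open in 1 or more divisions; green bars are the 3444 members, grey bars the 6009 genes open in 1 to 11 divisions, and the dashed line is the threshold. The bars on each side of the line hold 632 and 684 genes, and none lies above 19 divisions.

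Without regions whose start and end recurred in another division, 58 promoters were open in 12 or more divisions, and all 58 were members. Members were then open in a median of 3 divisions, 610 of them in none, and the highest count was 16. Ppp3ca, the catalytic subunit of the phosphatase calcineurin, and Cntrl, a centrosome protein, reached 16, followed by Mex3c, Papss1, Zyx, Gins2, Sp4 and Nr3c2 with 15 (named after their values were seen). Fam210b and Amz2 kept 13 divisions and Slc35b2 8. Keeping each distinct region only in the cell with its highest pileup left 374 members, and leaving out regions that shared a start or an end with another division left 0. Of the regions with a q under 0.05, 94.3% recurred by start and end and 99.0% by start or end. A large fall was thus built into both rules. The number of members therefore depended on counting regions that recurred, but recurrence was not particular to members. By start and end, 82.7% of the highest regions at open members recurred, against 87.4% at other open promoters. Leaving out regions can only lower a count of divisions, so each of the 58 had to be a member.

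The 3 leading promoters were seen at both ages. Fam210b encodes a mitochondrial protein, and its pileup ranged from 0 to 14 in young cells (median 5) and from 0 to 14 in aged cells (median 4). It was open in 20 young and 11 aged cells, in both daughters of 12 divisions, and its regions had a median length of 689 bp. Amz2, a metalloprotease gene, had a pileup of 0 to 7 in young (median 4) and 0 to 8 in aged cells (median 2). Slc35b2, a Golgi transporter of the sulfate donor PAPS, had 0 to 10 in young (median 3.5) and 0 to 10 in aged cells (median 2.5). The young and aged cells overlapped almost fully at all 3 promoters.

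The next members, 16 genes open in 18 divisions, had varied roles. Mex3c, an RNA-binding ubiquitin ligase, and the zinc finger gene Zfp619 were open in 30 cells. Atxn3, a deubiquitinase, Cul3, Gins2, a subunit of the GINS complex that loads at replication forks, and the receptor gene Gpr157 were open in 29. Akap13, an anchor of protein kinase A, the antiproliferative gene Btg1 and the Hsp40 co-chaperone gene Dnajb1 were open in 28, as were Nadk, Pdlim5, Slc12a7 and Tfrc, named after their values were seen. The 12 genes described first thus end inside a tie, and their roles do not share a single theme.

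Among lists of genes with a common role, heat shock and unfolded protein response genes had the highest share of members, 12 of 17 (70.6%), against 20% of all genes that could be members. Dnajb1 led with 18 divisions, and Xbp1, a transcription factor of the unfolded protein response, and Canx, a chaperone of the endoplasmic reticulum, followed with 16. Cell cycle engines and checkpoints had 19 of 34 (55.9%), including the phosphatase genes Cdc25a and Cdc25b and the cyclin gene Ccna2, each open in 16 divisions. DNA replication genes had 8 of 21 (38.1%), with Gins2 at 18, Mcm10 at 17 and Mcm6 at 16. The glycolysis list had 6 of 17 (35.3%), with the glucose transporter gene Slc2a1 at 16 and the enzyme genes Eno1 and Aldoa at 15. In all, 16 of 25 lists lay above the share of all genes, and 6 did so without recurring regions. Of the 4 lists above, DNA replication then kept 1 of 21 and the other 3 had 0, at a share of 0.337% of all genes, too low to compare lists of this size. With each distinct region kept in 1 cell, the shares were 17.6% for heat shock, 8.82% for cell cycle, 9.52% for DNA replication and 5.88% for glycolysis, against 2.18% of all genes. The lead of the heat shock list depended on the threshold. With a q under 0.01 it had 1 of 17 members (5.88%), below DNA replication with 4 of 21. At 16 or more divisions it had 3 of 17, again below DNA replication with 4 of 21. It kept the highest share at 8 or more divisions (14 of 17) and with a pileup of at least 3 (8 of 17). The shares are a description and not a test.

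Lists of the machinery of gene expression and of mitochondria had these shares. Spliceosome and hnRNP genes had 24 of 56 members (42.9%), such as Hnrnpll, Hnrnpr and Prpf19 with 16 divisions. Translation factors had 17 of 50 (34.0%), with Eif3h, Eef1g and the eIF2 kinase gene Eif2ak3 at 16, and ribosomal proteins 21 of 64 (32.8%), with Rpl37, Rplp2 and Rps15a at 16. The mitochondrial ribosome had 14 of 48 (29.2%), led by Mrpl4 with 17 divisions and Mrpl17 with 16, and the proteasome 11 of 39 (28.2%), led by Psmd4 with 16. Respiratory chain and ATP synthase genes had 17 of 62 (27.4%), among them Atp5e and Ndufv1. Histone genes had 10 of 50 (20%), led by H2az2 and H3f3b with 15, the same share as all genes. With a q under 0.01, ribosomal proteins (1.56%), the proteasome (2.56%) and the mitochondrial ribosome (0%) fell under the 2.85% of all genes, so their order depended on the threshold.

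Regulators were counted in 3 lists. Chromatin and DNA methylation enzymes had 13 of 30 members (43.3%), with the remodeller Chd4 and the maintenance methyltransferase Dnmt1 at 15 divisions and Dnmt3b at 14, while Smarca4 was open in 1. With 500 bp in place of 1 kb, 8 of the 30 (26.7%) were members, against 17.8% of all genes. At 16 or more divisions 0 were, against 3.27%. Immediate-early and AP-1 genes had 9 of 27 (33.3%), led by Btg1, the phosphatase gene Dusp2 and the transcription factor gene Klf2. Genes with Zfp symbols had 105 of 344 (30.5%), led by Zfp619, Zfp706 and Zfp622. Without recurring regions 1 of the 344 was a member (0.291%, against 0.337% of all genes). With each distinct region kept in 1 cell the share was 1.74%, against 2.18%. Both shares rest on few genes and lay near those of all genes, so the lead of this list was not kept. Within each of these lists the counts ran from 0 divisions to 15 or more, so a list's name did not fix whether its promoters were open.

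The cultures contained SCF and G-CSF, and some genes that act at or after cytokine receptors are given here as single examples, without a share. The transcription factor gene Stat5a and the ubiquitin ligase gene Cblb were open in 16 divisions, and Nras, Pik3cd and the survival gene Mcl1 in 15. The feedback genes Socs1 and Cish were open in 14 and 13. The receptor genes differed: Csf3r, for G-CSF, was open in 11 divisions and missed the threshold, and Kit, for SCF, was open in none. Mapk3 and Ptpn11, which also act after these receptors, were open in 1.

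The label of the cells was checked against genes that mark HSCs. Of 28 genes of the stem cell list, 7 were members (25%, against 20% of all genes), and 0 without recurring regions, where the share of all genes was 0.337%. The 7 were Spi1 with 15 divisions, Runx1 and Hlf with 14, Fli1, Mllt3 and Etv6 with 13 and Gfi1b with 12. Cd34 and Lyl1 were open in 10 divisions, Hoxb5 in 7, Gata2 and Fgd5 in 6, and Mecom, Meis1, Tal1, Lmo2 and Erg in 2. The study sorted its HSCs as negative for CD34, so the Cd34 promoter does not bear on the label. The promoters of the surface marker genes Kit, Ly6a, Procr, Slamf1 and Tek were open in 0 divisions. The genes of the list thus ranged from 0 to 15 divisions with a median of 3.5, and 9 were open in none. Without a q threshold 20 of 28 (71.4%) would have been members, against 45.1% of all genes. At 8 or more divisions the share was 32.1%, against 34.2%, and at 16 or more 0%, against 3.27%. The order against all genes thus turned with the rule. Whether promoters were missed in cells with few regions was not tested.

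Markers of other cell types were rarely members, but the lists are short: at the 20% of all genes, a list of 5 would hold 1 member. None of the 5 erythroid, 5 B cell, 5 T cell or 5 stromal and endothelial marker genes was a member, nor any of 19 neuronal, muscle and liver genes. The members among markers of more mature blood cells were Pf4, of megakaryocytes, with 15 divisions and Cebpe, of granulocytes, with 13. Cd8a (9 divisions), Ebf1 (10) and Des, of muscle (11), came close to the threshold. Without a q threshold, 3 of 5 B cell, 4 of 5 megakaryocyte, 2 of 5 T cell, 1 of 5 stromal and endothelial, 1 of 7 granulocyte, 0 of 5 erythroid and 4 of 19 neuronal, muscle and liver genes would have been members, against 45.1% of all genes. Of 1100 olfactory receptor genes, silent outside sensory neurons as a rule, 14 were members (1.27%). Olfr1269 was open in 15 divisions and 20 cells, each time by the same 230 bp region with a pileup of 2 at most.

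Such identical regions occurred at other members too. In 140 members every open cell had 1 and the same start and end, and in 237 (6.88%) the commonest region made up 90% or more of the open cells, against 34.7% of other promoters open in 2 or more cells, which is not a like comparison, since a share of 90% is reached more easily with few open cells. Batf3, a transcription factor gene of dendritic cells, was open in 25 cells of 15 divisions by 1 region of 265 bp, and Polr3b, a subunit of RNA polymerase III, in 23 cells by 1 of 246 bp (both named after their values were seen). At Nras, 20 cells of 15 divisions had the same 283 bp region. By contrast, the 31 open cells of Fam210b had 22 distinct regions and the 30 of Mex3c 26. Over all members the commonest region made up a median of 35.3% of the open cells, with a median of 7 distinct regions. None of Batf3, Polr3b, Nras and Olfr1269 was open in any division without recurring regions, so their count of divisions says little about separate observations.

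Open members had higher pileup and longer regions than other open promoters of the same cells. In 31 cells with at least 10 open promoters of each kind, the mean pileup was 2.60 to 4.28 at members (median 3.44) and 2.19 to 4.25 at other promoters (median 2.53). It was higher at members in all 31 cells, by a median of 0.752 (SD 0.334). The median region length was 259 to 350 bp at members (median 286) and 205 to 325 bp at others (median 220), again longer in all 31. Since a low q asks for pileup, this difference was in part fixed by how members were chosen. Without recurring regions the medians at members were 3.84 for the mean pileup and 332.5 bp for the length.

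Pooled over cells, 69324 pairs of a member and a cell were open, and the pileup was 2 in 34.7% of them, against 64.4% of 44963 pairs of other promoters. A pileup of 5 or more was found in 17.9% of member pairs and 3.29% of others, and 10 or more in 201 and 6 pairs. The highest pileup, 20, was at Gm20594 in the aged cell 3a5B. Ddias and Prcp, neighbours whose TSSs shared regions, reached 15 in the young cell 5y6A and the aged cell 3a4A, and the scaffold gene Iqgap1 and Rasa1, a GTPase-activating protein of Ras, 14 in the aged cell 3a2A. The regions lay at the TSS of Prcp, with a median summit 985 bp from that of Ddias, and with 500 bp in place of 1 kb Ddias was open in 1 division and Prcp in 16. The longest region at a member was 1202 bp, at Rap2b, named for this after its value was seen. In total 36 members shared their highest region with another member in at least 1 cell. Most openings at members thus rested on a pileup of 2 to 4.

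Regions at members lay close to the start site. The summit was within 250 bp of the nearest TSS in 73.1% of member pairs and 58.4% of others, and within 100 bp in 45.1% and 34.9%. The median distance was 117 bp at members and 176 bp at others, and 55.5% of the summits at members lay before the TSS. The 100 bp just upstream of the TSS held 24.8% of the summits of members. Batf3 was an exception, with its summit 877 bp upstream, and at Fli1 the median summit lay 1221 bp downstream of the nearest TSS.

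**Figure D2:**
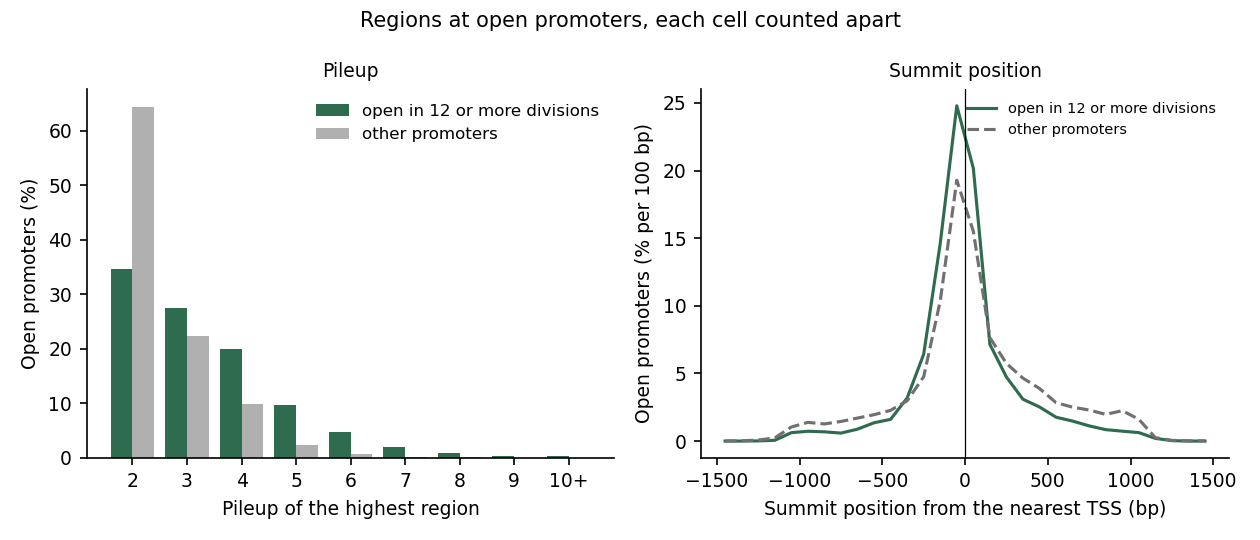
Left, share of open promoters (y axis, % of pairs of a promoter and a cell) by the pileup of the highest region (x axis, 10+ for 10 or more); right, share by the position of the summit from the nearest TSS (x axis, bp, negative upstream; y axis, % per 100 bp). Green marks the 69324 pairs of members and grey the 44963 pairs of other promoters; pileup 2 made up 34.7% and 64.4% of them, and the summits of members peaked just upstream of the TSS.

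How many members a cell had open stepped with the lowest pileup that reached the threshold in that cell. In 26 cells a pileup of 2 was enough for a q under 0.05, and they had 43.9% to 96.9% of the members open (median 79.1%). In 3 cells the lowest pileup was 3, with 6.07% to 19.6% of members open (median 14.8%), and in 19 cells it was 4 or more, with 0% to 2.06% (median 0.319%). Other promoters were open in 4.79% to 25.1% (median 12%), 0.640% to 1.19% and 0% to 0.233% in the same cells. The aged cell 3a4A, with 265731 listed regions, had the most members open (3336), and 5 cells had none. Young and aged cells were found in each of the 3 ranges, 17 and 9, 2 and 1, and 9 and 10. A member closed in a cell of few regions is thus not distinguishable from one that was not sampled.

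**Figure D3:**
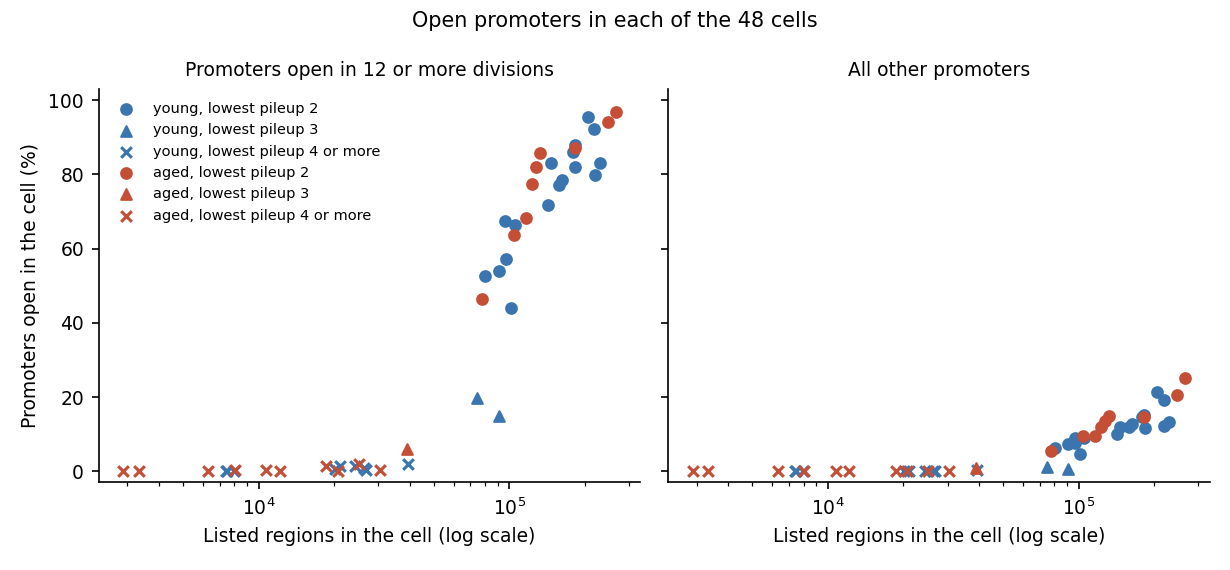
Share of promoters open in each of the 48 cells (y axis, %) by the number of listed regions of the cell (x axis, log scale), for the 3444 members (left) and all other promoters (right); blue marks young and red aged cells, and the symbol gives the lowest pileup that reached a q under 0.05. Cells with a lowest pileup of 2 had 43.9% to 96.9% of the members open, and those with 4 or more at most 2.06%.

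To see how far openness carried over to cells that did not choose it, promoters open in 11 or more of the other 23 divisions were taken for each division in turn. A median of 75% of them was open in the division left out, from 0.0245% to 97.7%, against a median of 13.2% of all other promoters. In the 13 divisions of set 3 the median was 87.1% (59.8% to 97.7%), against 16.5%. Without recurring regions the median over 24 divisions was 55.9%, against 4.61%. Promoters chosen in other divisions were therefore open more often than the rest in the division left out, but since the files share regions between divisions, this is not an independent check.

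Sister cells were compared at members open in at least 1 of the pair. Over all divisions there were 48002 such pairs of a member and a division, and both daughters were open in 21322 (44.4%), against 20.6% at other promoters. The divisions ranged from 0% to 78.1% with a median of 11.5% (SD 30.3, n = 24), so the pooled share was carried by some of the divisions. In the 10 divisions in which a pileup of 2 reached the threshold in both daughters, the range was 45.6% to 78.1% (median 64.1%), against 20.6% to 35.7% at other promoters (median 26.3%). In 6 divisions with 1 such daughter it was 0.525% to 20% (median 3.56%), and in 8 with none 0% to 2.94%. Without recurring regions the median over 22 divisions was 7.95%, and the pooled share 10.7%. The share of members open in both sisters thus stepped with the lowest pileup that reached the threshold in the 2 cells, and the cause was not tested. Members were chosen for being open often, so their higher share in both daughters than at other promoters was in part fixed by that choice. In 4y1, for example, 86.1% and 88.0% of members were open in daughters A and B, against 14.6% and 15.2% of other promoters. Whether sisters shared more than such shares alone would give was not tested.

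Single divisions show the spread. In 4y1, both daughters were open at 2630 members, only A at 336 and only B at 400, and their numbers of listed regions differed 1.02-fold. In 3y8 the counts were 2166, 494 and 536, at a 1.03-fold difference. In 3a1, 1449 members were open in both, 153 in A alone and 1555 in B alone, at a 2.36-fold difference. In 3y5, 2273 members were open only in A and 12 in both, at a 3.94-fold difference. Where both daughters were open, their highest region had the same start and end in a median of 24.4% of members per division, and in 4y1 in 30.5%.

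**Figure D4:**
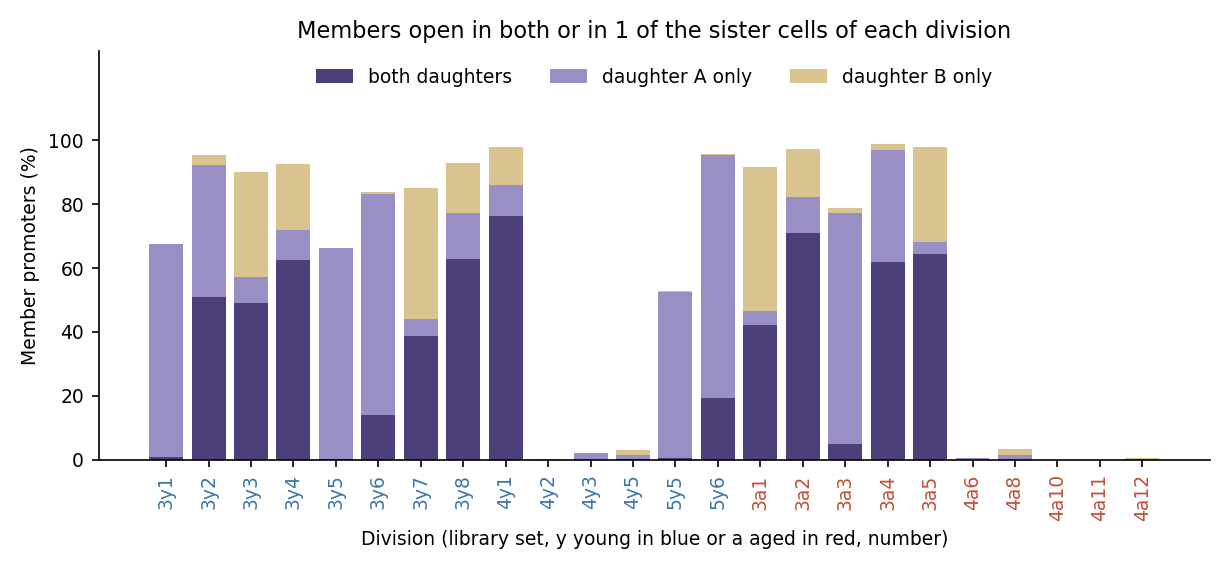
Share of the 3444 members (y axis, %) open in both daughters, only in daughter A or only in daughter B of each of the 24 divisions (x axis, young in blue, aged in red; the leading digit is the library set). Division 4y1 had 2630 members open in both daughters, while the 8 other divisions of set 4 had at most 114 open members in all.

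By gene, a member had both daughters open in a median of 6 divisions, from 0 to 13. Among divisions with the promoter open, the share with both open had quartiles of 33.3%, 43.8% and 56.3% over members. Fam210b, Mex3c, Zfp619 and the polarity gene Llgl2 had both daughters open in 12 divisions, whereas Spi1 did so in 4 of its 15 and Ep300, a histone acetyltransferase gene, in 1 of 13. A rule that asked for both daughters would have kept 37 members.

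Members were open at both ages, which the rule nearly fixed. The 12 divisions had in effect to come from 16, of which fewer than 12 are young. Each member was open in 6 to 13 of the 14 young divisions (median 9) and in 2 to 7 of the 10 aged divisions (median 5). Within set 3, members were open in a median of 7 of 8 young and 5 of 5 aged divisions, 927 in all young, 2397 in all aged and 732 in all 13. The share of members open per division was 66.4% to 95.4% in young divisions of set 3 (median 87.5%, SD 11.3, n = 8) and 78.6% to 98.8% in aged ones (median 97.2%, SD 8.43, n = 5). The share open in both sisters was 0.525% to 67.8% in young (median 49.4%) and 6.09% to 72.9% in aged divisions (median 62.5%). The ranges of the ages overlapped in both measures.

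The number of open daughters was tested by age gene by gene, by an exact permutation test of the age of divisions within sets 3 and 4. Of 8141 genes tested, 0 passed an adjusted p of 0.05 (0% called). An unadjusted p under 0.05 was found in 278 (3.41%), 237 of them higher (2.91%) and 41 lower in aged divisions (0.504%). The effect of a gene is its sum of open daughters in aged divisions minus that expected within sets. Its median over the 8141 genes was -0.154, lower in aged divisions, unlike most of the 278. Among the 3444 members, all tested, 0 passed and 30 had an unadjusted p under 0.05, 12 higher and 18 lower in aged divisions. The rule chose members by the same openness, so their count is not compared with that of all genes. The other test, Fisher's exact test of at least 1 open daughter over all 24 divisions without sets, called 0 as well, with 55 genes under an unadjusted p of 0.05, 2 higher and 53 lower in aged divisions. Set 3 alone gave 613 higher and 7 lower, and leaving out 4y1 608 and 10, the same direction as in sets 3 and 4. All listed regions without a q threshold gave 154 higher and 211 lower, so the direction held in these divisions but not in each alternative. Without recurring regions 0 of 2217 genes passed and 91 had an unadjusted p under 0.05. For a promoter closed throughout set 4, the smallest p that set 3 can give is 0.000777, which could pass over 8141 genes only if many genes shared it. The test therefore had little power to call a gene, and its count of 0 does not show that the ages were alike.

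Pileup was compared by limma with the library set in the model, on log2(pileup per 100000 listed regions + 1) averaged over sisters. Listed regions ran from 2890 to 265731 per cell, so the same pileup gives a higher level in a cell with few regions. Levels and their differences thus depend strongly on such cells. Of 4982 genes tested, 0 passed an adjusted p of 0.05 (0% called), 278 had an unadjusted p under 0.05 (5.58%), 65 higher (1.3%) and 213 lower in aged divisions (4.28%). Of the 3007 members tested, those with a listed region in 24 or more cells, 0 passed and 146 had an unadjusted p under 0.05, 32 higher and 114 lower. Without recurring regions only 39 genes could be tested, of which 0 passed and 2 had an unadjusted p under 0.05. Without division 4y1, 130 genes were higher and 162 lower at an unadjusted p under 0.05. Set 3 alone called 9 genes, all higher in aged divisions, of which 5 were members: Inpp5f, Maea, Cdyl2, Glce and Mak16. In set 3 alone 634 genes were higher and 42 lower at an unadjusted p under 0.05, so the direction of low p-values turned with the sets used.

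Among members, Acsl1, a long-chain acyl-CoA synthetase gene, had the lowest p for pileup and was named after its value was seen. Its pileup had a median of 2 in young cells (highest 7) and 2.5 in aged cells (highest 8), and its mean log2 level was 1.35 in young and 3.03 in aged divisions. The level, unlike the pileup, is scaled by listed regions and weighs cells with few regions more, so the 2 are not on the same scale. The log2 difference was 1.82 (SE 0.42, adjusted p = 0.0873 by limma), and it did not pass. Ccnd3, the cyclin D3 gene, had 1.77 and 0.64 (difference -1.19, SE 0.36, limma adjusted p = 0.699), and was also named after its values were seen.

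Members differed from other genes in sequence, which the rule did not use. All 3444 had a promoter sequence from 250 bases before to 50 after their most upstream known TSS. The G+C content had a median of 62.7%, against 59.3% in genes open in 1 to 11 divisions and 49.3% in genes open in none. The ratio of observed to expected CpG was 0.783, 0.688 and 0.249. A G+C content over 55% with a ratio over 0.65 was found in 63.0% of members, 45.8% and 14%. Within members the G+C content rose from 61.7% at 12 or 13 divisions to 63.7% at 16 or more. The 58 genes that passed without recurring regions had a median of 66.2%. A region at any TSS counted as open, so with more than 1 TSS the bases and motifs may not be those of the open site. The 2587 members with 1 TSS had a median G+C content of 63%. The base composition of members was thus at the end of a gradient that also ran through genes below the threshold, and G+C content can also move with amplification and sequencing, whose part was not tested.

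Matches to 11 short motifs were counted on both strands of the same 300 bases, each motif on its own, so that matches of different motifs may overlap. A match is only a description of letters. Sp/KLF (GGGCGG) was found in 71.1% of members and 45.7% of all 17184 promoters with a sequence, ETS (CCGGAA) in 27.0% and 16.6%, and NFY (CCAAT) in 42.5% and 38.3%. E-box (CACGTG) was found in 11.1% and 7.71%, CRE (TGACGTCA) in 3.6% and 2.25%, NRF1 (CGCATGCG) in 3.22% and 2.21% and YY1 (AAGATGGCG) in 2.87% and 1.59%. Shares were lower in members for the TATA box motif (TATAAA), 7% and 14.4%, AP-1 (TGANTCA), 5.02% and 7.39%, RUNX (TGTGGT), 12.2% and 15.3%, and PU.1 (GAGGAAGT), 2.82% and 3.13%. In the 250 bases before the TSS alone, PU.1 was found in 2.24% and 2.16%, so its order turned with the window. In percentage points, the share of members thus lay furthest above that of all promoters for Sp/KLF and ETS and furthest under it for TATA, and whether the G+C content alone would give this was not tested.

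From 12 or 13 to 16 or more divisions, the share with Sp/KLF rose from 67.7% to 77.9% and with NFY from 39.6% to 50.7%, while TATA fell from 8.34% to 4.63%. NFY stood apart from Sp/KLF below the threshold, with 38.6% in genes open in no division and 35.7% at 8 to 11 divisions. Fam210b, Amz2 and Cul3 above are examples of promoters with Sp/KLF matches. The Runx1 promoter, with 45.6% G+C, held NFY matches, as did that of Alb, which was open in no division.

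**Figure D5:**
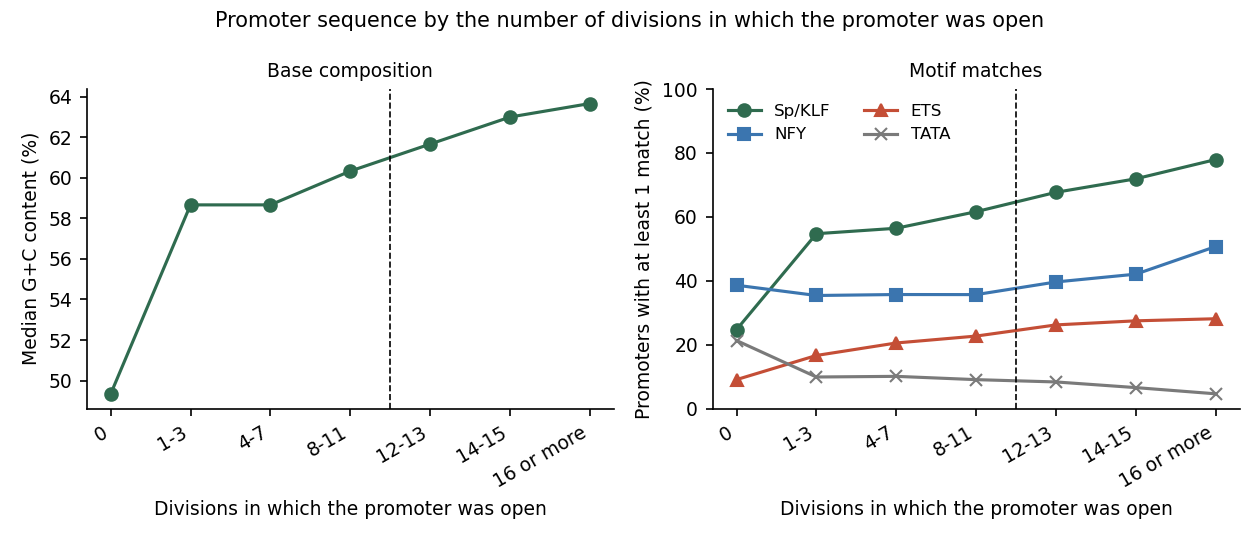
Median G+C content (left, y axis, %) and share of promoters with at least 1 match to 4 of the motifs (right, y axis, %) by the number of divisions in which the promoter was open (x axis); members lie to the right of the dashed line. From genes open in no division to members open in 16 or more, Sp/KLF matches went from 24.7% to 77.9% and TATA matches from 21.3% to 4.63%.

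Members were found on every autosome, from 15.4% of the genes of chromosome 7 (268 of 1743) to 24% on chromosome 8 (202 of 843). More than 1 TSS was annotated in 24.9% of members and 14% of other genes. Since a further TSS widens the searched window, the share was also taken by group: 18% of 14412 genes with 1 TSS were members and 30.9% of those with more. Amz2, with 2 start sites, and Cntrl, with 4, are members of the latter kind, Fam210b and Slc35b2 of the former.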

How the data were processed

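The authors trimmed reads with cutadapt 1.9.1, aligned them with Bowtie2 and called regions per cell with MACS2, the last 2 without a stated version. Each deposited list gives start, end, summit, pileup (a signal of overlapping reads, not normalised), fold enrichment (a ratio) and −log10 p and −log10 q values by the authors' caller; the ratio and p were not used. Depth is given here as listed regions, from 2890 to 265731 per cell, and limits which promoters can be seen; mapped reads of the study served only to scale 1 alternative of the pileup test.

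TSSs came from known RefSeq transcripts (GRCm38.p6). Per gene and cell the region with the highest pileup within 1 kb was taken. Tests used Python 3.11.15, SciPy 1.17.1, R 4.3.3 and limma 3.58.1, with Benjamini-Hochberg adjustment over all genes tested. The exact permutation test took genes open in 3 or more divisions of sets 3 and 4; limma took genes listed in 24 or more cells, with a pseudocount of 1. Both were tested on simulated data, but the outcome is not given here and no result rests on it. The members and gene lists were chosen with earlier results of these data known. Named genes were drawn from the 12 open in the most divisions, the 6 with the highest pileup, up to 3 per list, every gene of the stem cell, cytokine, chromatin and marker lists, any past an adjusted p of 0.05, and 3 on each side of the threshold; not all are printed, and the text says which others were named after their values were seen. Ties at 12 were ordered by cells open, then symbol. Alternatives varied q, window, divisions, daughters, annotation, sets, scaling and pseudocount. Leaving out recurring regions, a pileup of 3 or more, leaving out division 4y1 and members with 1 TSS were added after the data were seen.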

Additional observations from a re-analysis of the deposited data

Results flagged for a closer look

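Dixon's gap test was run on 2 measures of openness in 4 groups of divisions and on pileup and region length in 2 of these groups, 12 checks in all, each of the highest and the lowest division, and chance alone picks out about 1 in 20 groups. Division 4y1 stood far from the 3 other young divisions of set 4, with 97.7% of members open in at least 1 daughter and 78.1% of its open members open in both. Among the 5 aged divisions of set 4, 4a8 was highest in both measures, with 3.31% of members open and 1.75% of these open in both daughters (2 of 114), where the other 4 were at 0, so that any value above 0 would have been picked out. Division 3y6 had the longest regions among the 8 young divisions of set 3, a median length of 306 bp averaged over its daughters. Because q chose the members, these flags on their openness and region length only describe divisions, and no conclusion is drawn from them. The cause of the differences between divisions was not tested.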

How the results depend on the processing

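Of 71 alternatives of the main results, 52 were classed as within the spread or, for counts, near the main count, and 19 as moved. Counts classed as near were not all unchanged. The number of members was 3052 with 500 bp, 4059 with 2 kb and 4705 with opposite-strand genes kept. The lists above the share of all genes were 12 at 16 or more divisions and 19 without a q threshold. The number of members, 3444, became 490 with a q under 0.01, 7750 without a q threshold, 5873 at 8 or more and 562 at 16 or more divisions, 37 with both daughters and 5574 with 7 or more of the 13 divisions of set 3. With alternatives chosen after the data were seen, it became 58 without regions whose start and end recurred in another division, 374 when each was kept in 1 cell, 0 when start or end was enough, and 1579 with a pileup of at least 3. The pileup test called 1 gene with a pseudocount of 0.5 and 9 in set 3 alone. Median sister sharing, 11.5%, became 61.5% without a q threshold and 53.2% in set 3 alone. The mean pileup, 3.44, became 4.63 and the median length, 286 bp, 347.5 bp with a q under 0.01, and the length 332.5 bp without recurring regions. The lists above the share of all genes, 16 of 25, became 2 with both daughters and 6 without recurring regions; with start or end no members were left to compare. Stricter rules keep fewer members by construction; beyond that, the cause was not tested. The test of open daughters called 0 genes in all its alternatives, which says little, as it could hardly pass. The direction of its unadjusted p under 0.05 did turn, from 237 higher and 41 lower in aged divisions to 154 and 211 without a q threshold and to 2 and 53 by Fisher's exact test, which also changed the divisions, the sets and the value per division, and that of the pileup test from 65 and 213 to 634 and 42 in set 3 alone; without division 4y1 it was 130 and 162. The share open in the division left out stayed between 55.9% and 87.3%. The number of divisions of named genes was classed as near the main count in 60 and as moved in 55 of 115 alternatives. Those 60 include changed counts. Gins2 went from 18 to 15 without recurring regions and L3mbtl3 from 11 to 7 with a q under 0.01. The number of listed regions limits which promoters can be seen, and a closed promoter cannot be told apart from one not sampled.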
